A study of Camponotus floridanus with 64 samples.

Results

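The brains of carpenter ant scouts fed the deacetylase inhibitor trichostatin A (TSA) were compared with those of scouts fed its solvent, dimethyl sulfoxide (DMSO). The comparison holds 15 of the 64 samples of the series, 10 TSA brains (numbered 1 to 10) and 5 DMSO brains (numbered 17 to 21). They were chosen by treatment label alone, and 6 further scouts given TSA together with the acetyltransferase inhibitor C646 enter only where they are named. Every ant was a Camponotus floridanus minor worker taken for scouting. All had been held from day 25 to 30 of adult life with sugar water of 20% sucrose that carried 0.5% DMSO, and the TSA arm had 50 µM TSA in it, for 45 days per the labels. The RNA came from 15% of the cells of a single central brain, was selected for poly(A) tails and went through 1 round of linear amplification (LinDA).

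The arms shared a single colony. Colony SB2 gave TSA brains 1, 2, 3 and 10 and DMSO brains 17, 18 and 19. The other TSA brains came from SB1 (4, 7, 8 and 9) and SB4 (5 and 6), and the other DMSO brains from SB6 (20) and SB7 (21). The TSA ants were 68 to 73 days old and all DMSO ants 78 days old, so treatment and age cannot be told apart, and outside SB2 neither can treatment and colony. Brains aged 68 days are too young for 45 days of feeding after isolation at day 25, so the feeding time of single brains is uncertain. Each brain is a separate ant, per the labels.

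Histone deacetylases take acetyl groups off the tails of histones, and acetylated histones mark active promoters and enhancers. TSA blocks the zinc-dependent deacetylases, so histone acetylation rises in cells exposed to it. In this species minor workers do most of the scouting and foraging and the larger majors do less, and inhibitors of these enzymes have been used to ask whether histone acetylation sets that division of labour. The comparison asks which transcripts differ in the brain after long feeding with the inhibitor. Most identifiers in the table are numbers with no gene name, so a gene's function is given only where its identifier states what it is.

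Values are on a log2 scale. A difference of 1 is a doubling, or more than that at low values if 1 was added before the log, which is not known here. Within the table every brain carries the same ranked set of values plus a constant of its own, and identifiers that were not detected in a brain share the lowest place. "Level" means the value with that constant removed and undetected identifiers listed at 0, and "difference" means TSA minus DMSO in the values as deposited, from limma over 4899 genes with a mean of at least 1, unless said otherwise. Whether a 0 stands for an absent transcript or for an estimate that failed was not tested. Some ribosomal RNA identifiers are also listed at 0 in 2 brains, so single-brain levels are given in place of a mean for genes with zeros. The files hold no counts and the depth is unknown.

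TSA brains detected from 7511 to 12328 of the 18130 identifiers, with a median of 9262.5, and DMSO brains from 7825 to 8931, with a median of 7938. TSA brain 10 detected the most (12328), followed by brains 9 (11004), 3 (10204), 2 (10185) and 8 (10074), while the other 5 TSA brains lay at 7511 to 8451. The groups overlapped, and 1 TSA brain was under every DMSO brain. The difference in means was 1176, within the spread between brains (exact permutation test, two-sided, p = 0.112). It was 457 without TSA brains 8, 9 and 10. These were picked after seeing the data, are among the 5 TSA brains that detected the most, and no DMSO brain was left out. A smaller difference without them was therefore built in, and is no test. Within SB2 the difference was 1648 (exact permutation p = 0.171, where the smallest p that 4 against 3 brains can give is 0.0571).

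**Figure D1:**
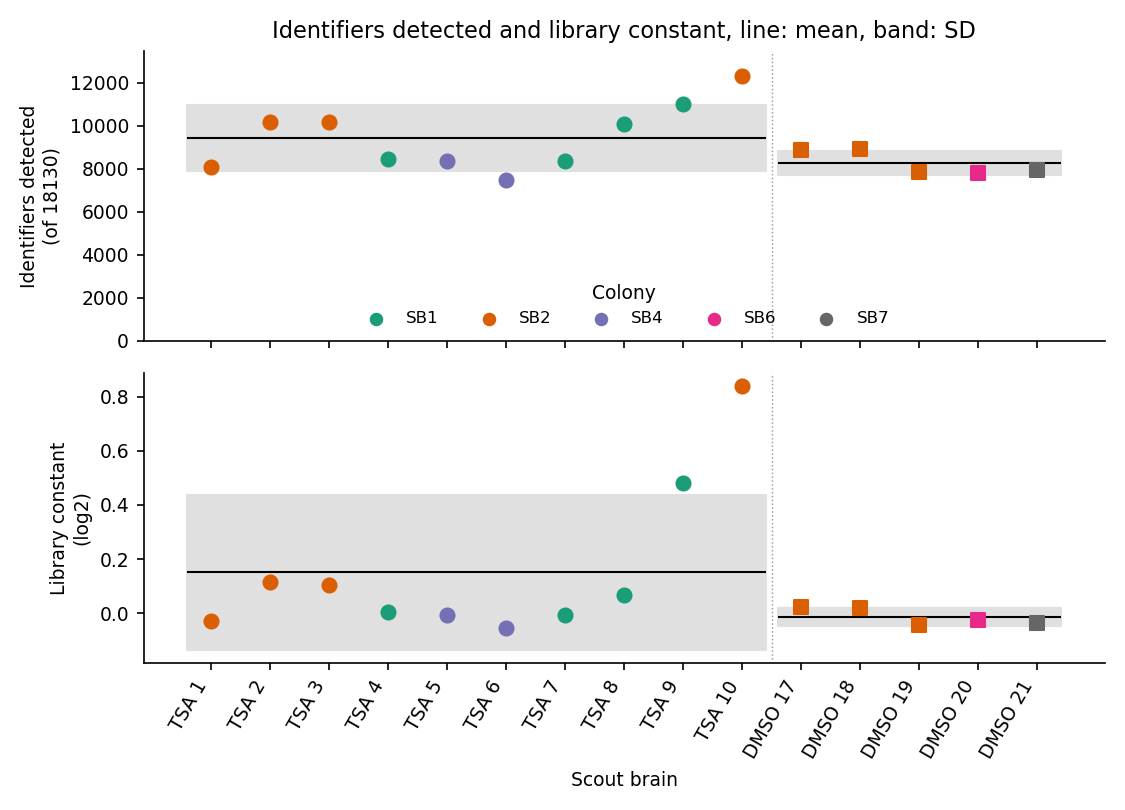
Identifiers detected (upper, out of 18130) and the library constant (lower, log2) in each of the 15 scout brains, coloured by colony, with circles for TSA and squares for DMSO, a line at the group mean and a band of 1 SD on each side. TSA brains 9 and 10 stand above all others in both panels, at 11004 and 12328 identifiers and constants of 0.482 and 0.840, and the DMSO brains lie close together.

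Brains 8, 9 and 10 stood apart from the rest in their whole profile. Over the 3885 identifiers detected in all 15 brains, the levels of DMSO brains correlated with each other at r = 0.923 to 0.940 (10 pairs). The 7 other TSA brains correlated with DMSO brains at 0.904 to 0.939 (35 pairs) and with each other at 0.894 to 0.945 (21 pairs). These 7 are what was left after brains 8, 9 and 10 were set aside for standing apart in these same data. Their likeness to DMSO brains is therefore partly built in. Over all 10 TSA brains, pairs of a TSA and a DMSO brain had r = 0.775 to 0.939 (50 pairs). Median r with DMSO brains was 0.874 for TSA brain 8, 0.786 for brain 9 and 0.848 for brain 10. These 3 were not alike either, with brains 8 and 9 at 0.705, the lowest value of any pair. TSA brains 4 and 7, from the same colony SB1 and of the same age of 72 days as brains 8 and 9, had medians of 0.931 and 0.928 with DMSO. Among brains other than 8, 9 and 10, pairs from a shared colony (median r 0.926, 17 pairs) and from different colonies (0.926, 49 pairs) were equally similar. These correlations are across genes of libraries that share a normalization, and are given as a description.

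**Figure D2:**
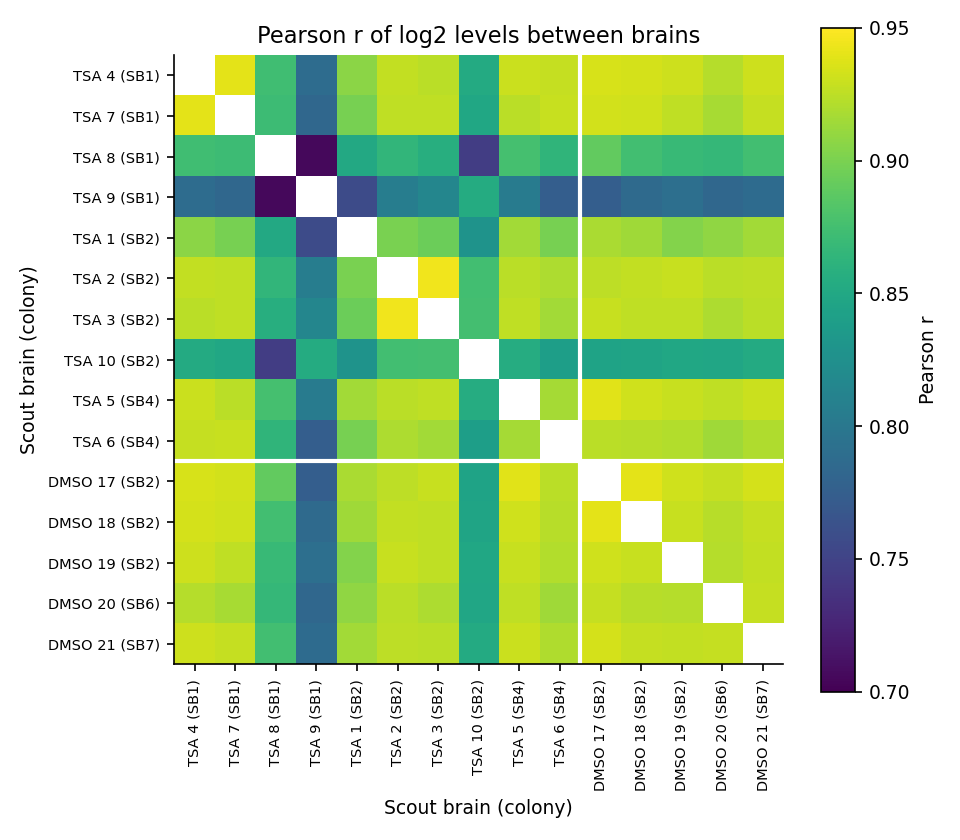
Pearson r of log2 levels over 3885 identifiers detected in all 15 brains, for each pair of brains, labelled with treatment, number and colony; the white lines part TSA from DMSO. The dark rows and columns are TSA brains 9, 10 and 8, and the block of the 7 other TSA brains against DMSO has nearly the same colours as the block of DMSO against itself. The 7 are those left after the dark ones were set aside in these same data, so that likeness is partly built in.

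No gene passed adjustment in TSA against DMSO. Of 4899 genes, limma called 0 after Benjamini-Hochberg adjustment (0% called), and the smallest adjusted p was 0.261. An unadjusted p under 0.05 was reached by 133 genes with higher values in TSA (2.71%) and by 27 with lower ones (0.551%), together 3.27% of the genes tested. This fit takes its variance from all 21 scout brains, among them TSA+C646 brain 15, which detected only 2791 identifiers. With the 15 TSA and DMSO brains alone the counts were 168 and 50, again with 0 called. The filter on the mean lets in genes high in TSA alone more easily than genes high in DMSO alone, so the 2 directions were not tested on equal terms. The excess of higher over lower genes also came with a median difference over all genes of 0.14. On levels, which leave the constants out, the median was -0.02 and the counts were 92 higher (1.88%) and 80 lower (1.63%). The mean constant was 0.152 in TSA and -0.014 in DMSO brains (exact permutation p = 0.105), and brains 9 and 10 carried the largest. Without brains 8, 9 and 10, a choice made after seeing the data that takes out the largest constants, the median was 0.01 and the counts 85 and 43. A direction of the whole set of genes therefore cannot be read from these values.

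The size of effect that these brains leave possible was wide. The 95% interval of the difference lay within 1 on either side of 0 for 1961 genes (40.0% of those tested) and within 2 for 4219 (86.1%), each interval taken gene by gene. The median standard error rose with the level, from 0.36 among the 2118 genes with a mean of 1 to 1.5, through 0.44 among the 948 genes at 2 to 3, to 0.68 among the 262 genes at 5 or more. Point estimates of at least 1 in size were found for 288 genes (5.88%), 205 higher and 83 lower, and with the constants removed for 133 higher and 137 lower. A difference of 1 was therefore not excluded for most genes, although none was shown.

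**Figure D3:**
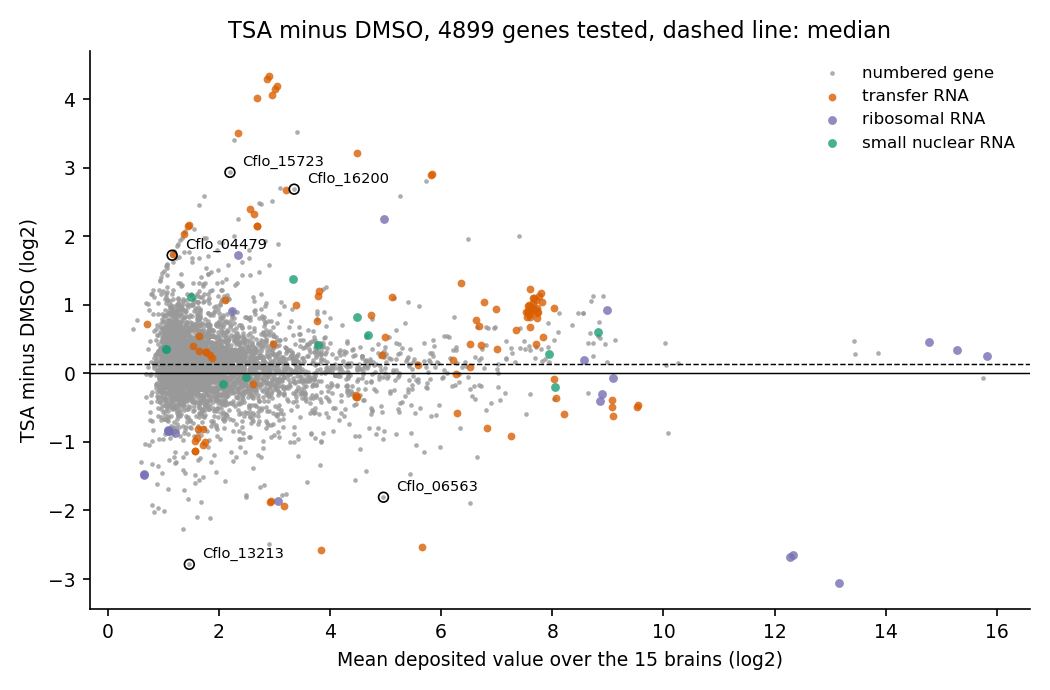
Difference between TSA and DMSO (log2) against the mean deposited value over the 15 brains (log2) for the 4899 genes tested, with transfer, ribosomal and small nuclear RNA identifiers coloured and 5 numbered genes circled. The dashed line marks the median difference of 0.14; transfer RNA identifiers hold the largest positive differences, and 3 ribosomal RNA identifiers at 12 to 13 are among the largest negative ones, beside Cflo_13213 at -2.79.

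Cflo_16200 had the smallest p. Its levels in TSA brains ran from 3.33 to 4.81 with a median of 4.12, and the DMSO brains 17 to 21 had 0, 2.02, 3.02, 0 and 2.81. Every TSA brain was above every DMSO brain. The difference was 2.69 (SE 0.54, limma adjusted p = 0.261). It was 2.62 (SE 0.73, limma adjusted p = 0.776) within SB2 and 2.84 (SE 0.73, limma adjusted p = 0.741) outside SB2, sets of brains with none in common. Without brains 8, 9 and 10 it was 2.63. The gene was picked for its p over these same brains, so a like difference in both sets is no separate test. With array weights, which give less weight to brains far from their group, it was the only gene called (difference 2.80, SE 0.45, limma adjusted p = 0.0208). All 6 brains given TSA with C646 had it too, at 3.10 to 7.02. The 7.02 is from brain 15, which detected only 2791 identifiers, and the others had 3.10 to 4.65. It was detected in 3 of 6 subsamples of a single day 1 minor brain, so libraries of the same brain can differ in whether it is listed at 0.

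Cflo_04479 was the one identifier detected in all 10 TSA brains and in no DMSO brain. Its TSA levels were low, from 0.84 to 2.41 with a median of 1.64, and it was listed at 0 in all 5 DMSO brains. It did not pass in the test of levels (limma adjusted p = 0.261) nor in Fisher's exact test of detection, where its p of 0.000333 is the smallest that 10 against 5 brains can give (adjusted p = 0.983 over 6693 identifiers). Among brains given both inhibitors 3 of 6 detected it, at up to 1.66, and all 5 day 1 minors did. The next contrast of detection, 9 TSA brains against none in DMSO, was shared by 4 identifiers, of which Cflo_15496 had the largest difference in mean level, with 9 of 10 TSA brains at 0.20 to 2.77, brain 2 at 0 and all DMSO brains at 0 (Fisher's exact p = 0.002, adjusted p = 0.983).

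Genes detected in all 15 brains do not depend on zeros, and among these the largest positive differences belonged to Cflo_13069 and Cflo_13055. Cflo_13069 had TSA levels from 0.72 to 4.13 with a median of 2.19, and DMSO levels of 0.79, 0.61, 0.73, 0.63 and 1.66. Only TSA brains 4, 5 and 8 lay under the highest DMSO brain, DMSO 21. The difference was 1.48 (SE 0.54, limma adjusted p = 0.995), with 2.07 within SB2 and 0.94 outside. Cflo_13055 had TSA levels from 1.85 to 3.51 with a median of 2.98, and DMSO levels of 3.42, 0.61, 2.17, 1.2 and 0.69. DMSO brain 17 was as high as the TSA brains, so the groups overlapped. Its difference was 1.44 (SE 0.53, limma adjusted p = 0.995), with 1.44 within SB2 and 1.82 outside.

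Among genes with lower values in TSA, Cflo_07198 and Cflo_15938 had the smallest p. Cflo_07198 was detected in all 5 DMSO brains at 1.22, 1.43, 2.69, 3.10 and 3.12 and in 5 of 10 TSA brains, at 0.80 to 2.46. TSA brain 7 was the only TSA brain above 1.31. Its difference was -1.41 (SE 0.49, limma adjusted p = 0.995), with -0.71 within SB2 and -2.31 outside. Cflo_15938 had DMSO levels of 2.25, 1.68, 1.16, 1.84 and 2.95, and TSA levels from 0 to 1.44 with a median of 0.92. DMSO brain 19 was its only DMSO brain under the highest TSA brains. Its difference was -1.14 (SE 0.40, limma adjusted p = 0.995).

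Other genes with lower values in TSA differed by presence or in few brains. Cflo_16601 was detected in no TSA brain and in DMSO brains 17 to 20, at 1.54, 0.88, 3.49 and 1.52 (Fisher's exact p = 0.00366, adjusted p = 0.983), and 3 of the 6 brains given both inhibitors had it at 1.5 to 2.3. Cflo_10449 was detected in TSA brain 1 alone, at 1.25, and in 4 of 5 DMSO brains, at 0.83 to 1.59. Cflo_16601 and Cflo_10449 did not pass the filter on the mean, so the main fit did not test them. Cflo_06563 had the largest negative difference among genes detected in all 15 brains, at -1.81 (SE 0.85, limma adjusted p = 0.995). Its DMSO levels were 7.25, 5.33, 6.79, 5.10 and 6.42. TSA brains 8, 9 and 10 had 1.26, 0.38 and 1.56, while the other 7 ran from 3.31 to 6.68. Without those 3 brains its difference was -0.59. Cflo_00335 was spread widely in both groups, from 0.11 to 4.64 in TSA and from 0.38 to 5.79 in DMSO, with a difference of -1.65 (SE 1.04).

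**Figure D4:**
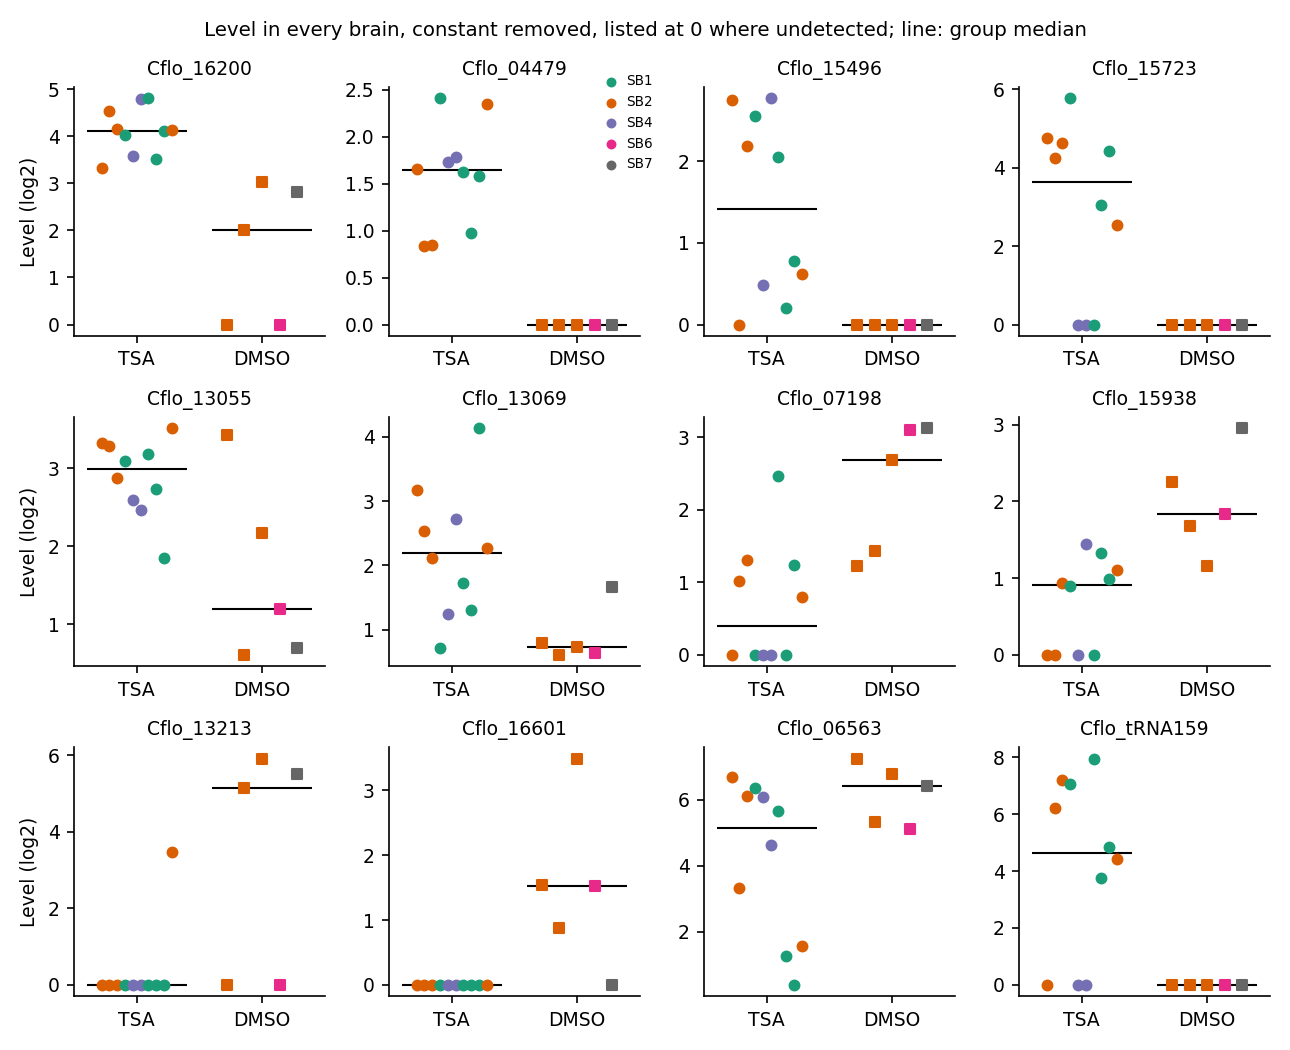
Levels (log2, constant removed, 0 where not detected) of 11 numbered genes and 1 transfer RNA identifier in each TSA brain (circles) and DMSO brain (squares), coloured by colony, with a line at the group median. Cflo_16200 and Cflo_04479 have no overlap between the groups, the other genes overlap or reach 0 in both groups, and Cflo_06563 is low in 3 TSA brains.

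Across all 4899 genes tested, and with constants removed, every TSA brain was above every DMSO brain for 3 genes (0.0612%) and below for 1 (0.0204%). Besides Cflo_16200 and Cflo_04479 these were Cflo_04052, at 2.18 to 4.03 in TSA and 1.78 to 2.16 in DMSO, and Cflo_04308, at 0.45 to 1.48 in TSA and 1.5 to 1.85 in DMSO, which are named for this and have limma adjusted p = 0.995 each. The most abundant genes differed by less than their errors. Cflo_13243 had levels of 15.03 to 15.86 in TSA and 15.62 to 15.86 in DMSO (difference -0.06, SE 0.30), and Cflo_14940 had 13.31 to 14.5 in TSA and 13.68 in each DMSO brain (difference 0.29, SE 0.31). Their levels repeat exact values because the top ranks of every brain hold the same set of numbers.

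Within colony SB2, 4 TSA brains stood against 3 DMSO brains, and limma called 1 gene higher (0.0204% of those tested). This was Cflo_15723, with levels of 4.75, 4.24, 4.63 and 2.53 in TSA brains 1, 2, 3 and 10 and 0 in the 3 DMSO brains (limma adjusted p = 0.0456). It was not called with the constants removed, nor after quantile normalization, nor when any of 5 of the 7 brains was left out. Outside SB2, TSA brains 4, 8 and 9 had it at 5.77, 3.04 and 4.43, TSA brains 5, 6 and 7 were at 0, and both DMSO brains were at 0 (limma adjusted p = 0.999). Cflo_15723 was listed at 0 in all 10 day 1 brains. Within SB2 an unadjusted p under 0.05 was reached by 208 genes with higher values (4.25%) and 72 with lower ones (1.47%), and on levels by 133 and 163.

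The next smallest p within SB2 belonged to Cflo_04526. Its levels were 3.26, 2.17, 2.77 and 2.26 in the SB2 TSA brains and 0.50, 0 and 0 in the SB2 DMSO brains, with no overlap (difference 2.69, SE 0.34, limma adjusted p = 0.131). Outside SB2 DMSO brain 20 had 3.67, more than any TSA brain, and the difference was -0.33 (SE 0.99). Cflo_10540 was lower within SB2, at 0.39 to 1.98 in TSA against 2.61, 3.03 and 3.03 in DMSO (difference -1.37, SE 0.32, limma adjusted p = 0.776). Outside SB2 its difference was 0.26 (SE 0.67). Cflo_07903 was lower too, at 0.71 to 2.81 against 3.31, 4.03 and 3.61 (difference -1.63, SE 0.42, limma adjusted p = 0.776), with 0.24 (SE 0.65) outside. These genes were picked for their p in SB2, and of the 2 with the smallest p in each direction there only Cflo_15723 had the same sign outside.

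Outside SB2, where 6 TSA brains stood against 2 DMSO brains, limma called 3 identifiers, all lower (0.0612%). Cflo_16083 was listed at 0 in all 10 TSA brains and in the 3 SB2 DMSO brains, and stood at 5.49 and 5.44 in DMSO brains 20 and 21 (limma adjusted p = 0.000102 outside SB2). Cflo_07122 was at 5.37 and 6.0 in DMSO 20 and 21 and at 0 in 5 of the 6 TSA brains there (difference -5.18, SE 0.51, limma adjusted p = 0.00631). In SB2 it was detected in TSA brains 1, 3 and 10, at 5.34, 1.46 and 3.5, and in DMSO brain 17 at 2.0. Cflo_antTRG574 was at 3.02 and 3.36 in DMSO 20 and 21 and at 0 to 0.29 in those TSA brains (difference -3.02, SE 0.28, limma adjusted p = 0.00603), and in SB2 it reached 4.71 in TSA brain 10 and 4.01 in DMSO brain 19. No TSA brain came from SB6 or SB7, so these differences cannot be told apart from colony.

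The differences within SB2 and outside SB2 rest on disjoint brains, and they had little in common. Over the 4899 genes the correlation between them was 0.06 (0.06 with constants removed), given as a description across genes. They had the same sign for 2712 genes (55.4%), and with constants removed for 2546 (52.0%). A size of at least 1 in both was found for 217 genes, of which 99 were higher in both, 30 lower in both and 88 opposite, and with constants removed 74 were higher, 47 lower and 93 opposite. An unadjusted p under 0.05 and a higher value in both sets was found for 10 genes, which is 4.81% of the SB2 list and 7.75% of the list outside, beside 2.63% of all genes higher outside. On the lower side the sets shared 0 genes of 72 and 71 (1.45% of all genes lower outside). With constants removed the sets shared 7 higher genes of 133 and 102 (2.08% of all genes higher outside) and 3 lower genes of 163 and 114 (2.33%). The 10 include Cflo_16200 and Cflo_04479.

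A limma test of the difference between the 2 effects called 3 genes (0.0612%), all with a more positive effect in SB2. With constants removed it called 4 (0.0816%), 3 more positive and 1 more negative in SB2. In the test on values as deposited, the genes besides Cflo_16083 were Cflo_14849 and Cflo_14775, which are named because they were called. Cflo_14849 had 1.80, 1.35 and 2.25 in the SB2 DMSO brains, 4.92 and 5.37 in DMSO 20 and 21, 2.72 to 3.85 in the SB2 TSA brains and 1.42 to 3.19 in the others. The 2 DMSO colonies outside SB2 were the highest of all brains and the SB2 DMSO brains were among the lowest. Its effect was 1.86 within SB2 and -2.64 outside (difference of effects 4.50, SE 0.74, limma adjusted p = 0.0454, or 0.0494 with constants removed). Cflo_14775 had 0, 0 and 0.80 in the SB2 DMSO brains and 1.93 and 1.59 in DMSO 20 and 21, against 1.11 to 2.32 in SB2 TSA brains and 0 to 1.28 in the others (limma adjusted p = 0.0454, or 0.259 with constants removed). Cflo_11559 followed the pattern of Cflo_14849, at 1.40, 1.07 and 1.73 in SB2 DMSO brains and 4.29 and 4.91 in DMSO 20 and 21 (limma adjusted p = 0.0513, or 0.0494 with constants removed). Cflo_11359 went the other way, at 2.63, 1.94 and 2.31 in SB2 DMSO brains, 0 and 0.37 in DMSO 20 and 21, 0.65 to 1.18 in SB2 TSA brains and 1.15 to 2.05 in the others. Its effect was -1.02 within SB2 and 1.57 outside (limma adjusted p = 0.0967, or 0.0448 with constants removed, where the difference of effects was -2.75).

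**Figure D5:**
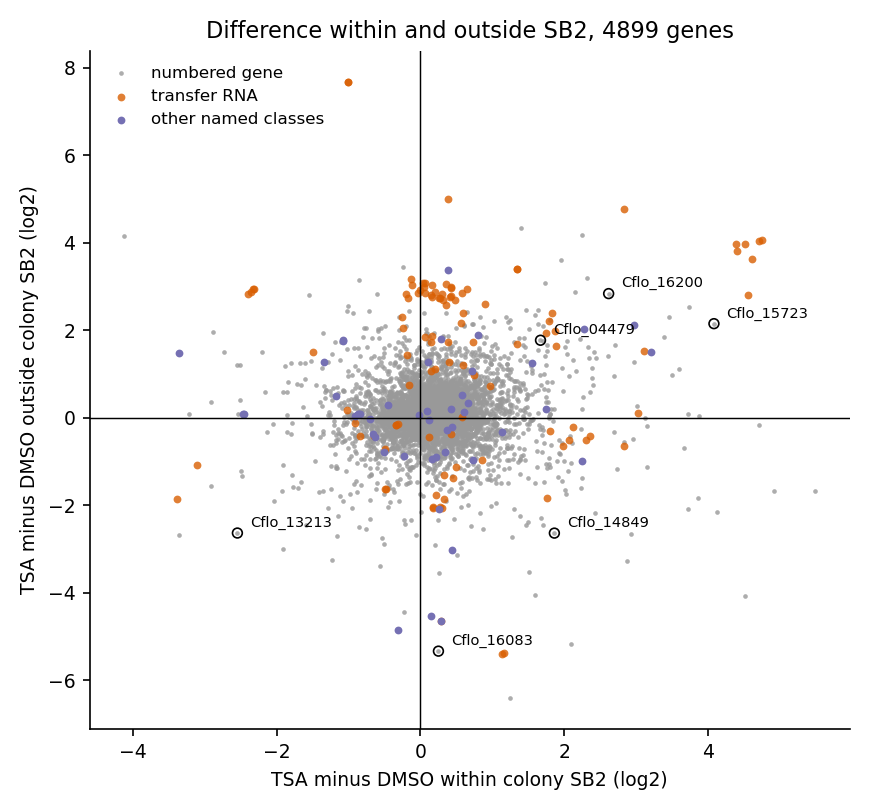
Difference outside colony SB2 (vertical, log2, 6 TSA and 2 DMSO brains) against the difference within SB2 (horizontal, log2, 4 TSA and 3 DMSO brains) for the 4899 genes tested, with transfer RNA and other named classes coloured. The cloud shows no slope (r = 0.06), the transfer RNA band near 0 on the horizontal and 3 on the vertical axis goes with DMSO brain 21, and the group at the upper right holds 7 transfer RNA identifiers absent from all DMSO brains.

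Ranked by the smaller of the differences in the 2 sets of brains, where these have the same sign, the first numbered genes with higher values were Cflo_16200 and Cflo_17000. Cflo_17000 stood at 3.31 to 7.85 in 8 of 10 TSA brains, at 0 in the other 2, and at 5.24 in DMSO brain 21 as the 1 DMSO brain of 5 (difference 3.53, SE 1.42, limma adjusted p = 0.995). All 10 day 1 brains had it at 0, and 4 of the 6 brains given both inhibitors had it. On the lower side, Cflo_10501 was at 4.87, 5.97, 0, 5.88 and 6.10 in DMSO and at 0 in 6 of 10 TSA brains, with 5.82, 5.49, 0.88 and 7.0 in TSA brains 4, 8, 9 and 6 (difference -2.48, SE 1.27, limma adjusted p = 0.995). Cflo_13213 was at 0, 5.14, 5.91, 0 and 5.51 in DMSO and at 0 in all TSA brains but brain 10, at 3.47 (difference -2.79, SE 1.04, limma adjusted p = 0.995).

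Transfer RNA, which carries amino acids to the ribosome and has no poly(A) tail of its own, gave 107 of the genes tested. At an unadjusted p under 0.05, 8 were higher in TSA and 0 lower, beside 2.71% and 0.551% of all genes, and 0 passed adjustment (0% called over all genes). The median difference of the class was 0.81, 0.33 within SB2 and 1.86 outside. Outside SB2 the DMSO arm has 2 brains, and DMSO brain 21 detected 27 transfer RNA identifiers against 60 to 81 in the other DMSO brains and 60 to 99 in TSA brains. Its median level over the 107 was 0, where the other 14 brains had 5.05 to 7.82. Of the 107, 81 were listed at 0 in DMSO brain 21, and 33 of these were detected in all 10 TSA brains.

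A block of 7 transfer RNA identifiers appeared together. Cflo_tRNA159, Cflo_tRNA120, Cflo_tRNA491, Cflo_tRNA492 and Cflo_tRNA493 were detected in the same 7 TSA brains (2, 3, 4, 7, 8, 9 and 10) and in no DMSO brain, and Cflo_tRNA3 and Cflo_tRNA114 differed from that pattern in 1 brain each at most. Where it was detected, the median level of the block ran from 3.05 in TSA brain 8 to 8.30 in TSA brain 7, and it was 0 in TSA brains 1, 5 and 6. Cflo_tRNA159 itself had 6.20, 7.19, 7.07, 7.95, 3.74, 4.84 and 4.41 in those 7 brains (limma adjusted p = 0.995, Fisher's exact p of detection 0.0256, adjusted p = 0.983). Among the brains given both inhibitors the block was on in brain 13 alone, at a median of 7.32. Copies of a transfer RNA gene can be near identical, and the authors' assignment of reads among them is not given, so the 7 cannot be counted as separate observations. Listed at 0 in all DMSO brains, they passed the filter on the mean only through brains given TSA. Of the transfer RNA identifiers that were lower, Cflo_tRNA102 had 6.14 to 7.84 in DMSO and was at 0 in TSA brains 4, 6 and 7 (difference -2.54, SE 1.48), and Cflo_tRNA468 was detected in 3 brains of each group (difference -2.58, SE 1.94).

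Ribosomal RNA, the bulk of cellular RNA and largely removed by poly(A) selection, gave 21 of the genes tested. None reached an unadjusted p under 0.05 in either direction, and the median difference was -0.41, beside -0.02 within SB2 and 0.09 outside. Cflo_rRNA15, Cflo_rRNA14 and Cflo_rRNA16 were listed at 0 in TSA brains 8 and 9 and stood at 13.68 to 15.26 in the other 13 brains. Both brains are from colony SB1, and TSA brains 4 and 7 of that colony had them. Cflo_rRNA15 thus had a difference of -3.07 (SE 2.24), or -0.14 without brains 8, 9 and 10, and Cflo_rRNA14 had -2.69 (SE 2.11), or -0.01. On the higher side Cflo_rRNA6 was detected in 9 of 10 TSA brains and 3 of 5 DMSO brains (difference 2.25, SE 1.31). Cflo_rRNA2, detected in every brain at 7.80 to 10.51 in TSA and 7.09 to 9.26 in DMSO, had a difference of 0.93 (SE 0.58). All of these have limma adjusted p = 0.995.

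Small nuclear RNA, the RNA part of the splicing machinery, gave 12 genes, none at an unadjusted p under 0.05, with a median difference of 0.39. The median was 0.31 within SB2 and 1.26 outside. Outside SB2, 1 of the 12 was higher at an unadjusted p under 0.05, beside 2.63% of all genes. Cflo_snRNA23 stood at 7.06 to 9.76 in TSA and 7.73 to 8.90 in DMSO (difference 0.60, SE 0.34), and Cflo_snRNA25 was detected in all TSA brains and in 3 of 5 DMSO brains (difference 1.38, SE 1.06). Cflo_snRNA16 (difference -0.20, SE 0.58) and Cflo_snRNA29 (difference -0.15, SE 0.56) had small values of the other sign, the first turning positive without TSA brain 8 or 9 and the second without TSA brain 1 or DMSO brain 20. MicroRNA identifiers were rarely detected, with 2 of 119 tested. Cflo_miRNA50 was detected in TSA brains 2, 9 and 10 at 6.79, 8.51 and 5.06 and in no DMSO brain, and Cflo_miRNA52 in TSA brain 6 and DMSO brain 21 alone.

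Chemoreceptors, which work in the sensory neurons of the antenna, were sparse in these central brains. TSA brains detected 38 to 154 of the 407 odorant receptor identifiers and DMSO brains 31 to 59, and 6 were tested, 0 at an unadjusted p under 0.05. The most often detected of those named, Cflo_OR61, had 0 to 3.54 in TSA and 1.40 to 3.05 in DMSO (difference -0.38, SE 0.49). Cflo_OR331 had a difference of -0.60 (SE 0.54), Cflo_OR313 of 0.36 (SE 0.47) and Cflo_OR96 of 0.15 (SE 0.45). Cflo_GR48, a gustatory receptor, had a difference of -0.07 (SE 0.71), and Cflo_IR311, an ionotropic receptor, of -0.33 (SE 0.39). Identifiers named antTRG, whose meaning the sources used here do not give, had 4 tested members. Besides Cflo_antTRG574 (difference -1.32, SE 0.88), these were Cflo_antTRG249 (0.16, SE 0.23), Cflo_antTRG559 (0.63, SE 0.93) and Cflo_antTRG389 (-0.05, SE 0.97).

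The co-receptors of the antenna were at or near 0 and none was abundant enough to be tested. Cflo_ORco, the partner of all odorant receptors, had 0 to 0.94 in TSA and 0 to 0.92 in DMSO. The ionotropic co-receptors were at most 0.50 in TSA and 0.63 in DMSO for Cflo_IR25a, 0.77 and 0.88 for Cflo_IR8a, and 1.32 and 0.39 for Cflo_IR76b. Cflo_IR93a had 0 to 1.58 and 0 to 1.09. These 4 co-receptors other than Cflo_IR93a were the only names found of 22 cell type markers looked for, so neurons, glia, fat body and muscle could not be checked against the label of central brain. None of the names of histone deacetylases and acetyltransferases looked for was found in the table, so these enzymes, the targets of TSA among them, cannot be reported. In these bulk samples fewer cells of a type and less RNA per cell cannot be told apart.

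No class was shown to take a different share of the identifiers detected, which with 10 against 5 brains does not show equal shares. Numbered genes made up 97.8% ± 0.3 (SD, n = 10) of the identifiers detected in TSA and 98.1% ± 0.3 (n = 5) in DMSO brains (exact permutation p = 0.114, adjusted p = 0.529 over 9 classes). Transfer RNA made up 0.878% ± 0.056 and 0.762% ± 0.243 (exact permutation p = 0.246, adjusted p = 0.529), and odorant receptors 0.722% ± 0.254 and 0.586% ± 0.121 (exact permutation p = 0.294, adjusted p = 0.529). The smallest adjusted p of the 9 classes was 0.529.

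Detection of single identifiers leaned the way of the number detected. Of the 18130 identifiers, 3885 were detected in all 15 brains, 3009 in none, 3060 in TSA brains only and 248 in DMSO brains only, where the TSA arm has 10 brains and the DMSO arm 5. Among 6693 identifiers detected in 3 to 12 brains, Fisher's exact test with Benjamini-Hochberg adjustment called 0 (0% called). The smallest p that 10 against 5 brains can give in Fisher's exact test is 0.000333, and 1 identifier reached it. An adjusted p under 0.05 would need many identifiers to split that cleanly, so the 0 does not show equal detection. At an unadjusted p under 0.05, 220 (3.29%) were detected more often in TSA and 12 (0.179%) more often in DMSO. Without brains 8, 9 and 10 these were 74 and 47 of 5264, a smaller lean built in by leaving out TSA brains that detected many identifiers. The first count also fell to 100, 100 and 101 when DMSO brain 19, 20 or 21 alone was left out, to 129 and 146 without DMSO brain 17 or 18, and to 124 and 142 without TSA brain 10 or 9, over a range of 100 to 246. With 1 DMSO brain fewer the smallest p of Fisher's exact test rises to 0.000999. The count can therefore fall whichever DMSO brain is left out. Counting only levels of at least 1, the numbers were 68 and 66 of 5332, but every brain reaches that level for the same 4764 identifiers in number, so their near balance is set by the shared profile and says nothing of the lean.

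The spread between brains was larger in the TSA arm. Over the 4899 genes tested, with constants removed, the median SD between brains was 0.646 in TSA and 0.481 in DMSO, a ratio of 1.34, and the SD was larger in TSA for 66.1% of genes. Over the 3042 of these genes detected in all 15 brains the values were 0.519 and 0.365. Without TSA brains 8, 9 and 10 they were 0.40 and 0.37, and over all genes tested the ratio was 1.07. Within SB2, which holds TSA brain 10, the ratio was 1.35. Over the genes detected in all 15 brains it was 1.43 in SB2 and 1.17 there without TSA brain 10. TSA brains 8, 9 and 10 were picked for standing apart in these same data, and no DMSO brain was left out. A smaller TSA spread without them was therefore built in, and is no test of the spread. Where the TSA arm holds more brains, its median SD also comes out somewhat higher at equal spread. Ratios slightly above 1 thus do not show a difference. For scale, 4 subsamples of 4% of a single day 1 minor brain, amplified in the same way and normalized in their own table, had a median SD of 0.144 over 2898 genes, where DMSO scouts had 0.359 and TSA scouts 0.511. No test was made of the spread.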

How the data were processed

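Poly(A) RNA was measured in 21 scout brains, of which the 15 given TSA or DMSO are compared. Values were deposited by the authors on a log2 scale (the base is inferred here), normalized by a method not given in the sources used here. The submitters' processing notes name Bowtie2, Cufflinks 2.2.1 and bcl2fastq 2.0. A spike-in mix was added per the labels' protocols and has no rows in the table.

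From the deposited log2 values, each brain's constant was read off as its offset from the shared ranked profile. Undetected identifiers, tied at the bottom and spread in line order, were recovered and checked on simulated libraries, as were the tests. The planned design assumed linear values, and since these were logged the tests ran on them directly. Tests used limma 3.58.1 in R 4.3.3, with a variance trend and Benjamini-Hochberg adjustment at 0.05. The main comparison had all 21 scout brains in 1 fit. The fits within and outside SB2 held only the TSA and DMSO brains of those sets. The test between colony sets held the 15 TSA and DMSO brains. Fisher's exact tests and exact permutation tests, two-sided, used scipy 1.17.1. Tables and figures used pandas 2.3.3, numpy 2.4.6 and matplotlib 3.10.9. 0 value columns were left without a sample.

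The brains, lists and tests were chosen with earlier results of these data known. Named numbered genes are at most 2 per direction with the smallest p in all brains, in SB2 and in the detection test, the largest difference in both colony sets and among genes detected in all 15 brains, the 2 most abundant, and those called under an alternative. In each named class they are the 2 with the smallest p per direction. Identifiers called only with a brain left out are given by number and class, an exception to that rule. None of the identifiers matched the reference table of 14020 genes, so no sequence is shown. Alternatives without brains 8, 9 and 10, and the test between colony sets, were added after seeing the data.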

Additional observations from a re-analysis of the deposited data

Results flagged for a closer look

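In 72 checks of a single brain far from the others of its group, 16 were met. For values without ties the rule is met by about 1 group in 20 by chance. Many of these groups hold zeros or tied values and the same brains recur, so that rate does not carry over to them. TSA brain 10 detected 4 microRNA, 23 gustatory receptor and 25 antTRG identifiers, more than any other TSA brain, where the next brain had 2, 12 and 16. TSA brain 2 detected 22 ribosomal RNA identifiers (next 15), TSA brain 3 detected 13 small nuclear RNA identifiers (next 11), and DMSO brain 17 detected 23 ribosomal RNA identifiers (next 14).

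Levels of named genes had brains far above the rest in Cflo_07198 (2.46 in TSA brain 7), Cflo_13213 (3.47 in TSA brain 10), Cflo_10449 (1.25 in TSA brain 1) and Cflo_antTRG574 (4.71 in TSA brain 10). In DMSO brains the same held for Cflo_04526 (3.67 in DMSO brain 20), Cflo_17000 (5.24 in DMSO brain 21) and Cflo_13069 (1.66 in DMSO brain 21). Brains far below the rest were found in Cflo_10540 (1.37 in DMSO brain 21) and Cflo_10501 (0.00 in DMSO brain 19). Cflo_13243 met the same rule at 15.62 in DMSO brain 18 only because the other 4 DMSO brains are tied at 15.86, a neighbouring value of the shared profile.

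The effect within SB2 and outside SB2 differed in the limma test of that difference for Cflo_16083 (difference of effects 5.59, a gene listed at 0 in 13 brains), Cflo_14775 (2.76) and Cflo_14849 (4.50). With constants removed Cflo_14775 was not called (limma adjusted p = 0.259), and Cflo_11359, of the opposite sign, was (difference of effects -2.75, limma adjusted p = 0.0448). DMSO brains 20 and 21, from colonies with no TSA brain, hold the DMSO side outside SB2 in each of the 4, and the part of colony was not tested.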

How the results depend on the processing

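In TSA against DMSO the number of genes called was 0 in the main fit and 0 under the alternatives run, leaving out each brain in turn included (0 to 0), except with array weights (1, Cflo_16200). Called within SB2 were 1 gene in the main fit, 0 with constants removed, 0 after quantile normalization and 0 to 14 with a brain left out; the 14, without TSA brain 1, include 7 transfer RNA identifiers. Outside SB2 the number was 3 with constants removed and after quantile normalization, and 3 to 47 with a brain left out; the 47, without DMSO brain 20, include 32 transfer RNA identifiers, all higher, and rest on DMSO brain 21, a lone sample assumed to vary like the other groups. Without TSA brain 8 it was 6. Detection called 0 identifiers throughout (0 to 0), though so few brains leave that test little room to call any. The difference in identifiers detected was 0 at a level of at least 1, by construction, and 857 to 1392 with a brain left out. The spread ratio was 1.07 without TSA brains 8, 9 and 10, a fall built in by leaving out TSA brains picked for standing apart. Of 1229 differences of 44 named genes under the alternatives, 43 changed sign, in 10 genes. Since the main fit called 0 genes, none of the 10 was called there. Cflo_07122, which is among them with -1.29 in the main fit, was called lower outside SB2. With colony as a fixed term Cflo_07122 had 1.21, Cflo_snRNA16 0.275, Cflo_miRNA52 0.165 and Cflo_OR96 -0.034. With array weights Cflo_snRNA16 had 0.24, Cflo_GR48 0.15 and Cflo_antTRG389 0.24. After quantile normalization Cflo_OR96 had -0.016 and Cflo_antTRG249 -0.008, and with constants removed -0.024 and -0.008. Cflo_GR48 had 0.048 with a pseudocount of 5 and 0.19 without the TSA library of largest constant, and Cflo_antTRG389 had 0.13 with a pseudocount of 0.1. Without brains 8, 9 and 10 Cflo_snRNA16 had 0.45, Cflo_OR96 -0.033, Cflo_GR48 0.27 and Cflo_antTRG389 0.185, and with constants removed too 0.42, -0.084, 0.24 and 0.19, with Cflo_14940 at -0.005. With a brain left out Cflo_13243 ranged from -0.14 to 0.01, Cflo_snRNA16 from -0.39 to 0.11, Cflo_snRNA29 from -0.63 to 0.047, Cflo_miRNA52 from -1.20 to 0.89, Cflo_OR96 from -0.026 to 0.28, Cflo_GR48 from -0.325 to 0.262 and Cflo_antTRG389 from -0.41 to 0.85. Genes lower at an unadjusted p under 0.05 ranged from 11 of 1540 (linear mean of at least 5) to 93 of 4899 (quantile normalization). Higher ones ranged from 37 of 1540 (linear mean of at least 5) to 371 of 18130 (no filter). The numbers of genes tested differ, so these counts cannot be set side by side. Why single differences changed sign was not tested. No paired analysis was possible because TSA and DMSO brains share no replicate numbers; colony, as a fixed term or as a random block, was fitted in its place and called 0 genes. Depth is unknown.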
